A study of Mus musculus with 16 samples.

Results

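The genes described here are the 85 interleukin and interleukin receptor genes, of 20508 genes with a coding segment in the mm10 gene annotation deposited for a mouse spleen RNA sequencing study. They were chosen by symbol: every gene whose symbol starts with Il and a digit and that had at least 1 coding segment. A symbol with an r after the number and any letters (and Il6st, the shared signalling chain gp130) made a gene a receptor, and the rest were ligands, which gave 42 ligands and 43 receptors. Symbols do not always match roles. Il1rn encodes the secreted IL-1 receptor antagonist but counted as a receptor. Il18bp (an IL-18 binding protein), Il4i1 (an amino acid oxidase) and Il16 (cut from a precursor with PDZ domains) counted as ligands.

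Interleukins are secreted proteins through which immune cells signal to each other, and each acts through receptor chains on the target cell. Most interleukins that bind class I or class II receptors fold into a bundle of alpha helices, the IL-1 family folds into a beta trefoil, and the IL-17 family forms cystine-knot dimers. Class I and class II receptors recognise their ligands through fibronectin type III modules, IL-1 receptors through immunoglobulin modules joined to a TIR domain, and the private alpha chains of the IL-2 and IL-15 receptors through sushi modules. In the spleen these proteins set the growth, differentiation and activity of T cells, B cells and myeloid cells.

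The study had 16 spleen samples in 4 groups of 4, with no treatment in the labels. The 2 wild-type groups differed in their code (NG66 or NG108). The other mice were a double knockout, TNFR1-/- and TNFR2-/-, and a triple knockout that also carried Zfp36-/-, so both knockout groups lacked the TNF receptors. Zfp36 encodes tristetraprolin (TTP), which binds AU-rich elements in mRNA and promotes decay of the message. The file used here held gene models with no value for any sample, so expression, depth per sample and genotype effects were not analysed here. The values below are properties of gene models: they carry no replicate error, and no test was run on them.

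Sequence across exon junctions is shown first, because the place where an intron cuts a codon differed in frequency between ligands and receptors and between families. An intron between codons has phase 0, and an intron after the first or the second base of a codon has phase 1 or phase 2. Each window below holds 15 coding bases before and 15 after a junction, written 5′ to 3′, so the intron lay between base 15 and base 16. Capitals mark the codon that the intron splits or, in phase 0, the codons on both sides of it.
Il2, phase 0: ctgagcaggatgGAGAATtacaggaacctg
Il10, phase 0: gtgaagactttcTTTCAAacaaaggaccag
Il22, phase 0: atgctggccaagGAGGCCagccttgcagat
Il2ra, phase 1: ccagttgtcgggcaGAActgtgtctgtatg
Il10ra, phase 1: aattcattgcatacGGGacagaactgccaa
Il1rl1, phase 1: cagttacggagggcAGTaaatcgtcctggg
Il17a, phase 2: accctggactctcCACcgcaatgaagaccc
Il25, phase 2: tccttggagctatGAGttggacagggactt
The junctions are those of coding exons 1 and 2, except for Il17a and Il25, where they are those of coding exons 2 and 3. In Il2, Il10 and Il22 the junction left every codon whole, whereas in the 3 receptor genes the first base of a codon ended the first coding exon. The introns removed there were chr3:37125619-37125717 for Il2 (minus strand), chr1:131020077-131020963 for Il10, chr10:118205177-118205569 for Il22, chr2:11643065-11674294 for Il2ra, chr9:45267221-45269005 for Il10ra (minus strand), chr1:40440829-40441291 for Il1rl1, chr1:20732308-20733621 for Il17a and chr14:54933226-54935103 for Il25, all in mm10. The Il2 intron was 99 bp long and the Il2ra intron 31230 bp.

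Ligand genes were small and receptor genes were not. The median ligand had 5 exons, 544.5 coding bases and a span of 5548 bp from first to last exon. The median receptor had 11 exons, 1617 coding bases and a span of 27225 bp. Over all 20508 coding genes the medians were 7 exons, 1215 coding bases and 16315 bp, so the ligands lay below and the receptors above on each measure. Each gene was represented by the transcript with its longest coding sequence, and coding length leaves out the stop codon.

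The classes overlapped little in exon number and coding length. Of the 42 ligands, 28 had at most 5 exons (66.7%), against 2 of 43 receptors (4.65%) and 39.5% of all coding genes. The 2 receptors were Il1rn with 4 exons and Il22ra2, a soluble IL-22 binding protein, with 5. A coding length of at most 600 nt was found in 30 ligands (71.4%), in 1 receptor, which was Il1rn, and in 14.6% of all coding genes. Above 1000 nt there were 38 receptors and 3 ligands. Those 3 ligands were Il16 (3966 nt), Il4i1 (1890 nt) and Il12b (1005 nt), the p40 subunit of IL-12 and IL-23. Il4i1 encodes an enzyme and Il16 a protein with PDZ domains, and p40 is built from receptor-type modules.

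**Figure D1:**
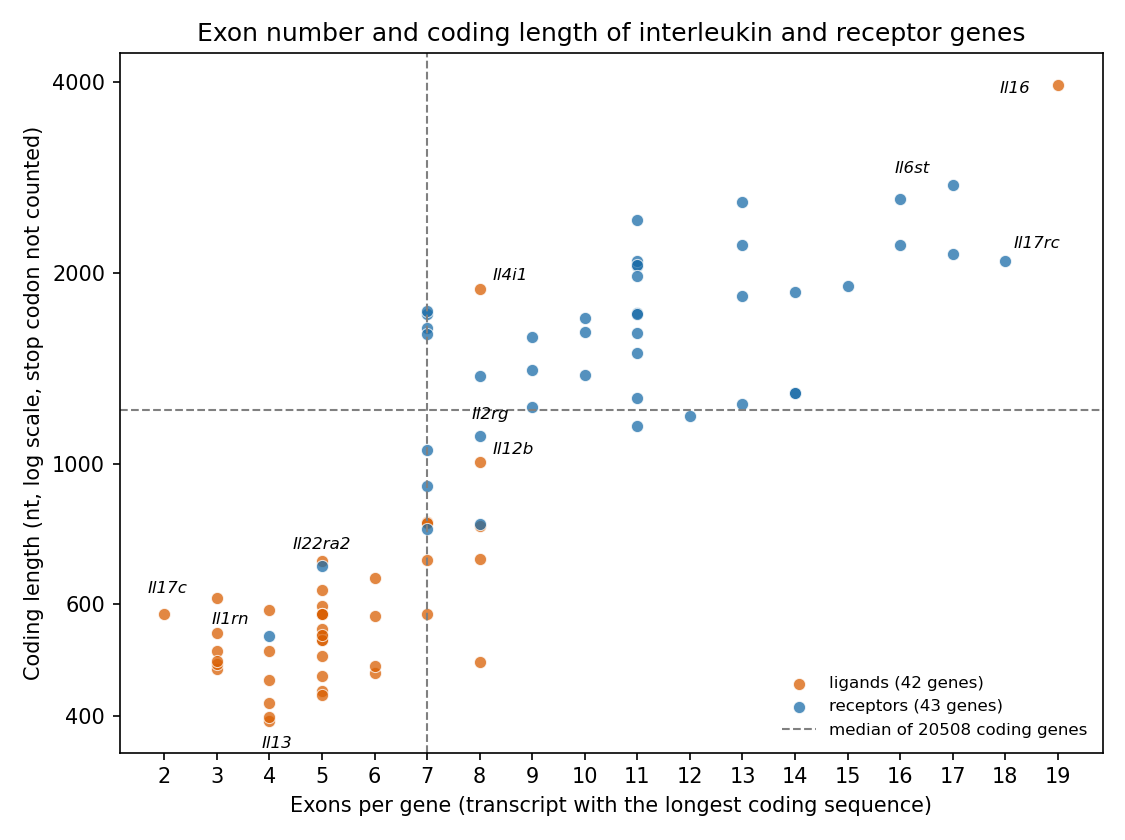
Exons per gene (x axis) against coding length in nt (y axis, log scale) for 42 ligand and 43 receptor genes, 1 point per gene, with dashed lines at the medians of all 20508 coding genes. Most ligands sit in the lower left and most receptors in the upper right; Il1rn (4 exons, 534 nt) lies among the ligands and Il16 (19 exons, 3966 nt) beyond every receptor.

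At the small end of the ligands were the type 2 cytokines. Il13 had 393 coding bases, Il5 399 and Il4 420, each in 4 exons. IL-4 and IL-13 drive alternative activation, IL-4 drives antibody class switching, and IL-5 supports eosinophils. The fewest exons belonged to Il17c (2), followed by Il31 and the other 5 IL-17 ligands with 3 each. Il17c is the one member whose coding length in the deposited annotation (580 nt) is not a multiple of 3, and it was left out of the phase counts. Exon number reached 8 in Il12a, Il12b, Il15, Il33 and Il4i1 and 19 in Il16.

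At the large end of the receptors were the signalling chains of the IL-6 and IL-12 group. Il6st had 2751 coding bases in 17 exons and Il12rb2 had 2622 in 16. Il17ra, the receptor chain for IL-17A, had 2592 in 13 exons. Il17rc had the most exons (18) within a span of only 11709 bp. The shortest coding sequences after Il1rn were those of Il22ra2 (690 nt), Il15ra (789 nt) and Il2ra (804 nt), the last 2 being the sushi-module chains.

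Genomic span was set by introns and varied far more than coding length. Ligands ranged from 1487 bp in Il28b and 1500 bp in Il28a, the lambda interferon genes, to 92428 bp in Il16. Il15 (70963 bp) and Il34 (64075 bp), a ligand of the CSF1 receptor, were the next longest, and in both over 97% of the span was intronic (98.2% and 97.3%). Among receptors the shortest span was that of Il2rg (3820 bp), the common gamma chain. The longest were the X-linked Il1rapl1 (1368382 bp) and Il1rapl2 (1275407 bp), whose products are best known at neuronal synapses, followed by Il1rap (143443 bp).

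These 3 receptors were the members above 100 kb, which 89.4% of all coding genes did not exceed. The longest intron alone was 470851 bp in Il1rapl1 and 522727 bp in Il1rapl2. Their coding lengths (2088 and 2058 nt) were close to the 2055 nt of Il1rap, so the difference in span lay in the introns. At most 10 kb was spanned by 32 ligands (76.2%), 4 receptors (9.30%) and 37.4% of all coding genes.

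**Figure D2:**
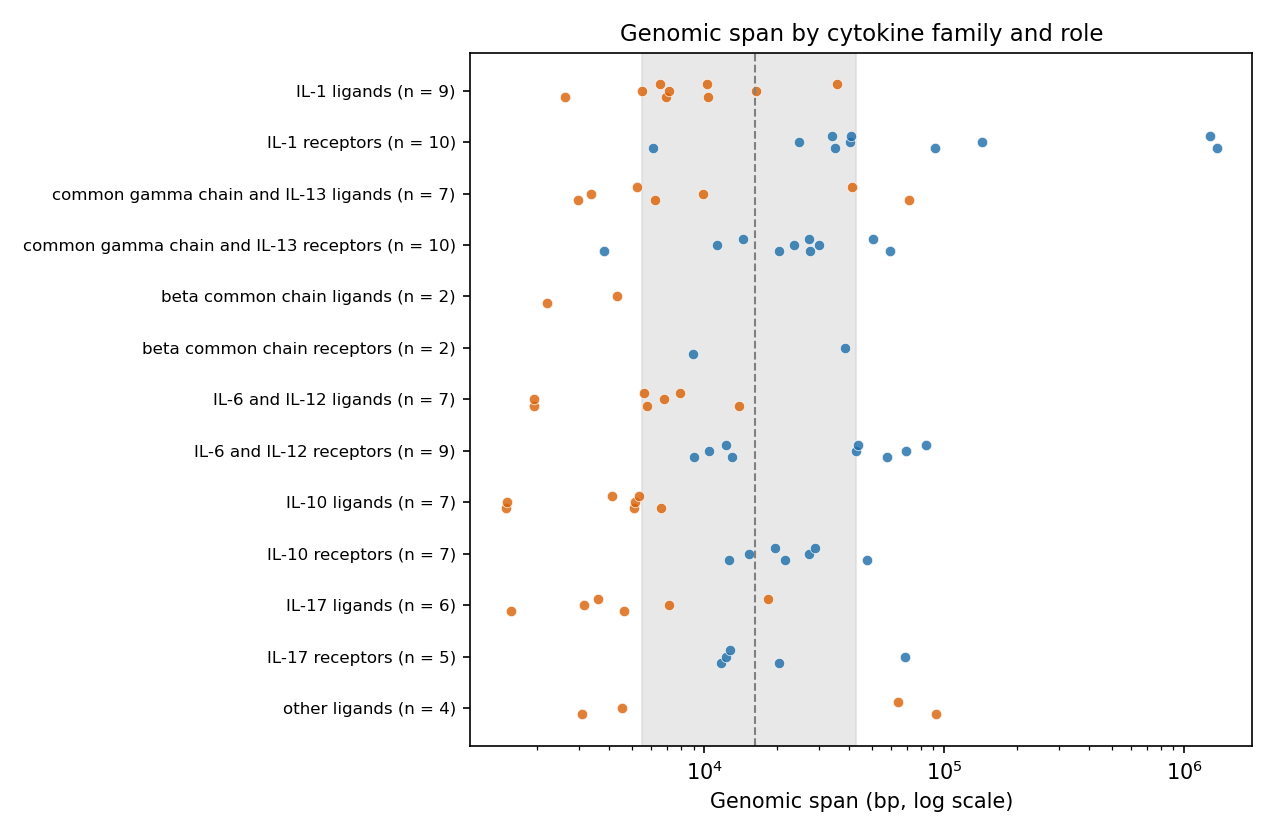
Genomic span in bp (x axis, log scale) of each member, 1 point per gene, by cytokine family and role (rows; orange ligands, blue receptors; small vertical offsets only separate points). The grey band runs from the first to the third quartile of all coding genes (5514 to 42746 bp) and the dashed line marks their median; 2 IL-1 receptor genes lie above 1 Mb.

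Pooled over genes, introns of ligands were mostly phase 0 and introns of receptors mostly phase 1, but ligand families differed. In the 41 ligands with a complete reading frame, 110 of 169 coding introns had phase 0 (65.1%), 42 phase 1 (24.9%) and 17 phase 2 (10.1%). In the 43 receptors, 221 of 393 had phase 1 (56.2%), 102 phase 0 (26.0%) and 70 phase 2 (17.8%). All coding genes together had 45.6% phase 0, 32.4% phase 1 and 22.0% phase 2. Among ligands, phase 0 made up 96.6% of introns in the IL-10 family and 92.3% in the common gamma chain and IL-13 group. IL-1 ligands had 20 of 35 introns in phase 1 (57.1%) and 11 in phase 0 (31.4%), near the 63.9% phase 1 of IL-1 receptors. IL-17 ligands had 5 introns in phase 0 and 5 in phase 2. Introns of 1 gene, and genes of 1 family, share their origin and are not independent points. Phase 0 throughout was found in 14 ligands, in 0 receptors and in 5.36% of all genes with a coding intron. These shares are not matched for intron number: the median was 5 coding exons in ligands and 10 in receptors. Of genes with 3 coding introns 8.52% had phase 0 throughout, and of genes with 4, 3.59%. The first coding intron was phase 1 in 35 of 43 receptors, 15 of 41 ligands and 39.3% of all genes with a coding intron.

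Internal coding exons also differed between the classes, which restates the intron phases above. Their length is a multiple of 3 exactly when the introns on both sides have the same phase. An internal coding exon whose length is a multiple of 3 can be lost without a frame shift, and 73 of 128 such exons in ligands were of that kind (57.0%). In receptors it was 93 of 350 (26.6%), and over all coding genes 40.7%. Of 22 internal exons of IL-10 family ligands 21 were symmetrical, and of 33 internal exons of their receptors 0 were. The beta common chain ligands Il3 and Il5 had 5 of 5, and the IL-17 ligands 0 of 5.

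Whole phase patterns were often shared within families, but some joined families. Phases 0, 0, 0 and 0, for example, joined IL-10 family genes to Il21, Il9 and Il3, and Il13ra1 shared its series with Il3ra. Of 84 members with a complete frame, 55 (30 ligands and 25 receptors) had exactly the phase series of at least 1 other member, in 14 patterns. The same share was not computed for other sets of genes, so 55 cannot be called high or low. Short series match easily, and phases 0, 0 and 0 were found in 139 coding genes. Only 1 of the 14 patterns joined a gene called a ligand to one called a receptor, and the receptor by symbol was Il1rn. Beside most patterns stands their share among all coding genes with the same number of coding introns, or the genes outside the members that had them.

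The helical cytokines had 2 main patterns. Phases 0, 0, 0 and 0 were found in 9 ligands (Il10, Il19, Il20, Il21, Il22, Il28a, Il28b, Il3 and Il9), a pattern held by 3.59% of genes with 4 coding introns. Il10 encodes the main anti-inflammatory cytokine and Il22 a cytokine that acts on epithelia. The coding exons measured 165, 60, 153, 66 and 90 nt in Il10 and 186, 66, 144, 66 and 75 nt in Il22, but 114, 36, 33, 132 and 117 nt in Il9, a mast cell and T cell growth factor. Over the 9 genes the third coding exon ranged from 33 to 156 nt. A 4-exon version with phases 0, 0 and 0 was found in Il2, Il4, Il5, Il13 and Il23a, and in 8.52% of genes with 3 coding introns. In these 5 genes the second coding exon measured 33 to 102 nt and the third 105 to 153 nt.

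Il6, Il7, Il11 and Il27 instead began with a very short coding exon of 7 to 31 nt that ended in phase 1, followed by 3 phase 0 introns (3.37% of genes with 4 coding introns). IL-6 drives the acute phase response and IL-7 supports lymphocyte development. Il24 had the same phases with 1 more phase 0 intron, after a first coding exon of 88 nt (1.99% of genes with 5 coding introns). Il31 had phases 1 and 0 only, as did 17.6% of genes with 2 coding introns. Il15 was alone among the members with 0, 2, 0, 0 and 0, a pattern of 0.757% of genes with 5 coding introns.

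IL-1 family ligands ended alike and began differently. All 9 had a phase 1 and then a phase 0 intron at their 3′ end, as did Il1rn, against 13.0% of genes with at least 2 coding introns. Il1a and Il1b, the classical inflammatory pair, shared phases 2, 0, 1, 1 and 0 (0.825% of genes with 5 coding introns). Their first coding exons were both 47 nt and their second coding exons both 49 nt long. Il1f6, Il1f8 and Il1f9, which encode the IL-36 agonists, shared 1, 1 and 0 (4.48% of genes with 3 coding introns). Il1f5 and Il1f10 shared 2, 1 and 0 with Il1rn, and 42 genes outside the members had it too (2.76% of genes with 3 coding introns). Il1f5 encodes the IL-36 receptor antagonist, so the antagonist genes of the IL-1 and IL-36 systems had the same series in their representative transcripts. The Il1rn transcripts of 162 and 159 codons had phases 1, 2, 1 and 0 instead. Il33, an alarmin stored in the nucleus, had 5 phase 1 introns before the last one.

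IL-17 ligands had phases 0 and 2 in all 5 with a complete frame (Il17a, Il17b, Il17d, Il17f and Il25), a pattern of 5.84% of genes with 2 coding introns. Their first coding exon was 9 to 27 nt long, 27 nt in Il17a and 9 nt in Il25. IL-17A and IL-17F recruit neutrophils, and IL-25 promotes type 2 responses.

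Among IL-1 receptor genes 1 series recurred that no gene outside the members had. Il18r1, Il18rap, Il1rap, Il1rapl1, Il1rapl2, Il1rl1 and Il1rl2 shared phases 1, 2, 0, 1, 1, 2, 1, 1 and 1, out of 881 genes with 9 coding introns. Il1r1, the signalling IL-1 receptor, had the same series after 1 extra phase 0 intron in its representative transcript. Its other transcript, of 573 codons, had the series itself. Il1r2, a decoy receptor without a TIR domain, had the first 7 phases of the series and stopped there. In the 7 genes the fifth coding exon measured 63 to 75 nt and the eighth 138 to 159 nt, whereas the last ranged from 350 nt to 716 nt (Il1rapl1).

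Class II receptors had phases 1, 2, 1, 0, 1 and 0 in 6 of 7 genes (Il10ra, Il10rb, Il20ra, Il20rb, Il22ra1 and Il28ra), against 0.975% of all genes with 6 coding introns. Only 5 genes outside the members had it, among them Ifngr1 and Ifngr2, the chains of the interferon gamma receptor, which are also class II. Il22ra2, which encodes the soluble IL-22 binding protein, had 1, 2, 1 and 0, the first 4 of the series. Coding exons 2 to 6 of the 6 genes stayed within 119 to 191 nt, and the last, which holds most of the cytoplasmic tail, ranged from 114 to 951 nt.

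The run 1, 2, 1, 0 was also the common core of class I receptors. It was present somewhere in the series of 23 receptors, and in 8.68% of 13115 coding genes with at least 4 coding introns. These were 7 of 7 IL-10 receptors, 7 of 9 in the IL-6 and IL-12 group, 7 of 10 in the common gamma chain and IL-13 group and both beta common chain partners. Il21r, Il2rg and Il7r shared phases 1, 2, 1, 0, 1, 2 and 0 with 3 genes outside the members, and these were Crlf2, Epor and Prlr. Il6st and Il12rb2 shared a series of 14 phases with Csf3r, the G-CSF receptor, and Il27ra and Il31ra shared a series of 13 with no other gene. Il3ra and Il13ra1, chains of the IL-3 and IL-13 receptors, shared a series of 10 with Csf2ra, the GM-CSF receptor chain. Il4ra, Il5ra, Il6ra, Il12rb1, Il13ra2 and Il23r each had a series that no other coding gene had, as did Il2rb, which did not hold the run.

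Among the receptors without the run were Il2rb, Il11ra1, Il11ra2 and the sushi-module genes. Il2ra and Il15ra had phase 1 at every intron but the last, which was phase 2 in both. The 5 IL-17 receptor genes had 36 phase 1, 29 phase 0 and 0 phase 2 introns, and all began with phases 0 and 1. Il17ra, Il17rb and Il17rd shared their first 10 phases (0, 1, 1, 0, 1, 1, 0, 0, 1 and 1), the whole series of Il17rb.

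Il12b was the one ligand by symbol that held the run 1, 2, 1, 0. Its phases were 1, 1, 2, 1, 0 and 2, and the first 5 were those of Il6ra, Il6st, Il12rb1, Il12rb2 and Il9r. A start with these 5 phases was found in 0.537% of genes with at least 5 coding introns. The p40 protein is known as a soluble relative of the IL-6 receptor chain, and among the related genes Ebi3, which encodes the like subunit of IL-27, had phases 1, 2, 1 and 0.

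**Figure D3:**
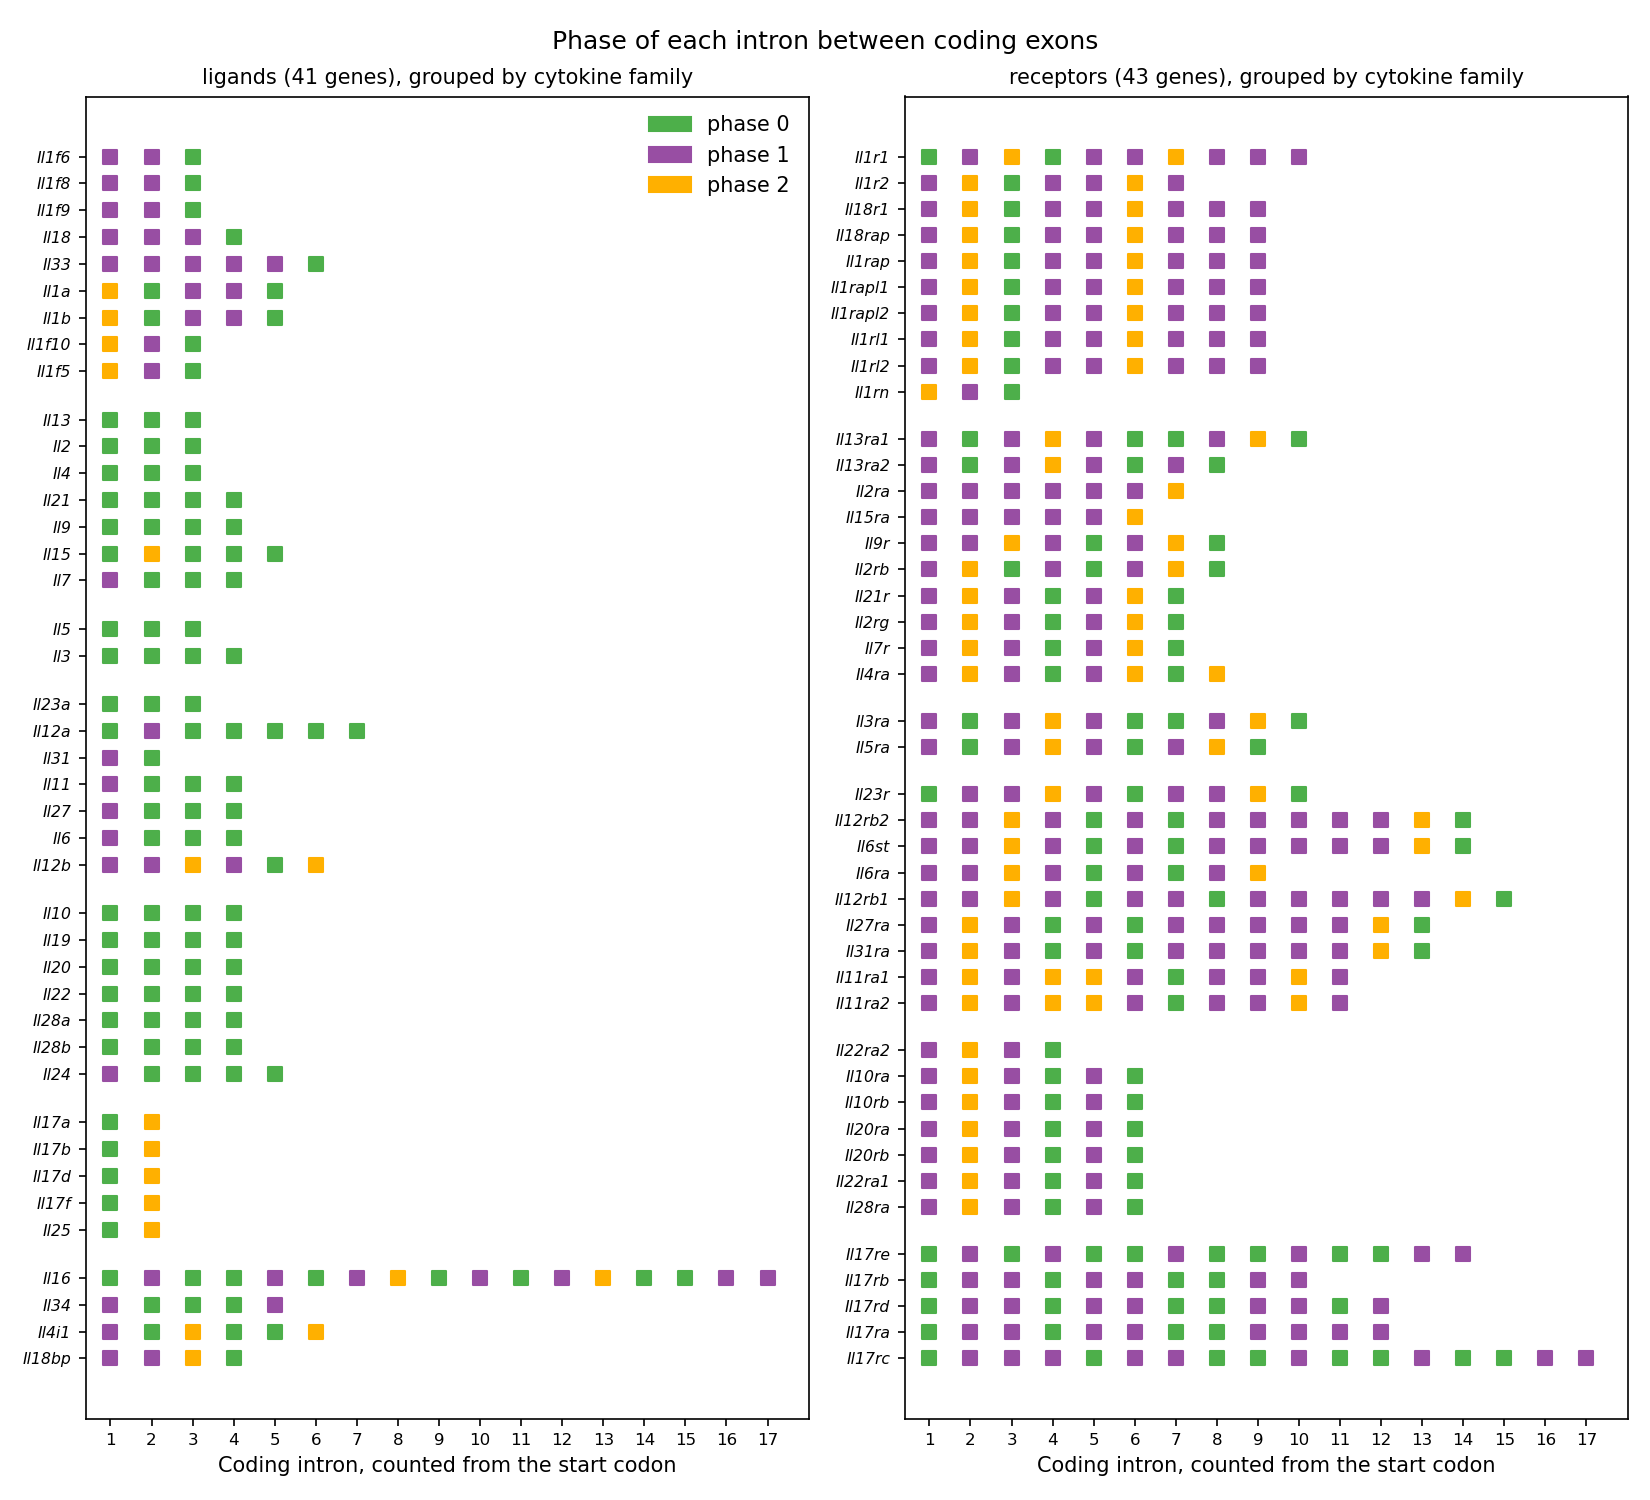
Phase of each coding intron (green 0, purple 1, orange 2) by its rank from the start codon (x axis), 1 row per gene, for 41 ligands (left) and 43 receptors (right) grouped by cytokine family. Blocks of identical rows are visible in the IL-10, IL-17 and IL-1 systems; Il12b, on the left, begins like the Il6ra and Il6st rows on the right, and Il1rn, on the right, matches Il1f5 and Il1f10 on the left.

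Cytokine genes without an interleukin symbol had the same contrast in size. The list held 16 ligands (among them Lif, Osm, Csf2, Epo and Ifng) and 18 receptors, all found in the annotation. The ligands had a median of 4.5 exons and 616.5 coding bases, from 420 in Tslp to 1656 in Csf1. The receptors had a median of 11.5 exons and 1862 coding bases, from 996 in Ifngr2 to 3486 in Lepr, the leptin receptor. Phase 0 made up 70.6% of the ligands' coding introns and phase 1 made up 53.1% of the receptors', and 16 of the 18 receptors held the run 1, 2, 1, 0.

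Annotated isoforms were few. More than 1 transcript was listed for 15 of 85 members (17.6%), as for 17.7% of all coding genes. They were 5 ligands (11.9%) and 10 receptors (23.3%). Transcripts that differed in coding sequence were listed for 11 members, which were 2 ligands (Il12a and Il34) and 9 receptors, against 13.7% of all coding genes. Il15, Il33, Il1f5 and Il11ra1 had transcripts that differed only outside the coding sequence, and in Il33 their starts lay 20676 bp apart.

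In 3 IL-1 receptor genes the isoforms differed at the stop codon. Il1rl1, the IL-33 receptor gene ST2, had a form of 567 codons and a form of 337 codons that kept the start codon and 6 coding exons and stopped early, which is the known secreted form. Il1rap had 4 forms of 685, 640, 570 and 360 codons with 1 start codon and 4 different stop codons. The shortest forms of Il1rl1 and Il1rap both had phases 1, 2, 0, 1, 1 and 2, so both left the shared series at the same intron. Il18r1 had 2 transcripts of 372 codons beside the full 537, and their 7 phases were those of the decoy gene Il1r2.

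The other receptor isoforms kept the stop codon. Il17re (637 or 436 codons), Il15ra (263 or 123), Il1r1 (576 or 573) and Il1rn (178, 162 or 159) differed at the start codon. Il1rn's starts of transcription lay up to 8511 bp apart. Il17rc (698 or 674 codons) and Il9r (469 or 468) kept both ends and differed inside. Of the ligands, Il12a (236 or 215 codons) differed at its start and Il34 (235 or 219) at its end.

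Most of the deposited gene models had the coding exons of a later annotation. In GENCODE M21, on the same assembly, an identical chain of coding exons was present for 83 of the 85 members; Il17c and Il17rc had none. The later annotation gave more than 1 protein-coding sequence to 46 members, 19 ligands and 27 receptors, so the number of isoforms depended on the source. The share over all genes of that annotation was not computed, so these counts do not show whether the members differ from other genes. Another symbol stood there for 4 members. The lambda interferon genes Il28a, Il28b and Il28ra carried the symbols Ifnl2, Ifnl3 and Ifnlr1, and the position used here for Il11ra2 carried Gm13305.

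The members lay on 18 chromosomes, with 12 on chromosome 1, 10 on chromosome 2 and 9 on chromosome 7. Of all 20508 coding genes, 1148, 1732 and 1910 lay on these chromosomes, in the same order. Members at most 500 kb from the next one formed 16 clusters that held 43 of the 85 genes, 20 ligands (47.6%) and 23 receptors (53.5%). The same measure was not computed for other groups of genes, so these shares do not show whether the members cluster more than others. Of the clusters, 15 held 1 role by symbol and 15 held 1 family. The exception in role was the IL-1 ligand cluster with Il1rn. The exception in family was Il4, Il13 and Il5. No cluster held both a ligand gene and the gene of its receptor chain. All positions are in mm10.

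The clusters with the most members, 6 each, belonged to the IL-1 system. On chromosome 1, Il1r2, Il1r1, Il1rl2, Il1rl1, Il18r1 and Il18rap followed each other on the plus strand (chr1:40084768-40549297). Il1rl1 and Il18r1 were only 137 bp apart, the smallest gap of any pair. On chromosome 2, Il1f8, Il1f9, Il1f6, Il1f5, Il1f10 and Il1rn followed each other on the plus strand over 198320 bp (chr2:24153172-24351491). Il1a and Il1b lay elsewhere on chromosome 2, 54607 bp apart on the minus strand (chr2:129299610-129371120). Neither row of 6 held any other coding gene.

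The IL-10 system was spread over 4 clusters. Il24, Il20 and Il19 lay on the minus strand of chromosome 1 with Il10 on the plus strand 80603 bp beyond, together 142897 bp (chr1:130882074-131024970). Il28a and Il28b stood head to head 12475 bp apart on chromosome 7 (chr7:28508861-28524322). Their receptor gene Il28ra lay 19978 bp from Il22ra1 on chromosome 4 (chr4:135686457-135755383). Il22ra2 lay 77905 bp from Il20ra on chromosome 10 (chr10:19622028-19760053).

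Of the type 2 cytokine genes, Il4 and Il13 were 12657 bp apart on the minus strand of chromosome 11, in the cluster chr11:53612461-53725103. Il5 followed on the plus strand 86091 bp from Il13, with Rad50 the one coding gene between. Rad50 encodes a DNA repair protein. Il3 joined this cluster only when a distance of 1 Mb was allowed.

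The other clusters were pairs. Il2 and Il21, both ligands of receptors with the common gamma chain, were 96804 bp apart on chromosome 3 (chr3:37120716-37232618). Il17a and Il17f pointed at each other across 42649 bp on chromosome 1 (chr1:20730905-20784270). Of the receptor pairs, Il2ra and Il15ra were 12341 bp apart at chr2:11642792-11733962, and Il4ra and Il21r 23954 bp apart at chr7:125552282-125633570. Il12rb2 and Il23r were 46794 bp apart at chr6:67292018-67491855, and Il17re and Il17rc 703 bp apart at chr6:113458484-113483163. Il6st and Il31ra pointed at each other across 15946 bp at chr13:112464070-112580662. Il12rb2 and Il23r encode the private chains of the IL-12 and IL-23 receptors, and Il2ra and Il15ra the sushi-module chains named above.

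The remaining cluster, Il11ra1 with Il11ra2 on chromosome 4, depends on how a repeated region was placed. The annotation lists the single Il11ra2 transcript at 4 positions with the same 1296 coding bases. Of these, 2 are on chromosome 4 (42158116 to 42168604 and 42655275 to 42665763) and 2 on unlocalized sequences. All 12 coding exons of Il11ra1 and Il11ra2 were equal in length. The deposited annotation also lists Gm13305 and Gm2002 as separate coding genes inside this cluster, with the same series of phases. Read counts for the 2 genes, and for the copies, could be split or shared by the counting, whose method the sources here do not state.

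Over all clusters there were 28 neighbouring pairs, counting the 2 copies of Il11ra2 as 1 of them. In 22 both genes were on the same strand, in 3 they pointed apart and in 3 towards each other. Many of the 22 came from the 2 IL-1 rows of 6, each on the plus strand throughout. No coding gene lay wholly between the 2 genes in 25 pairs. The same shares over neighbouring coding genes in general were not computed.

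**Figure D4:**
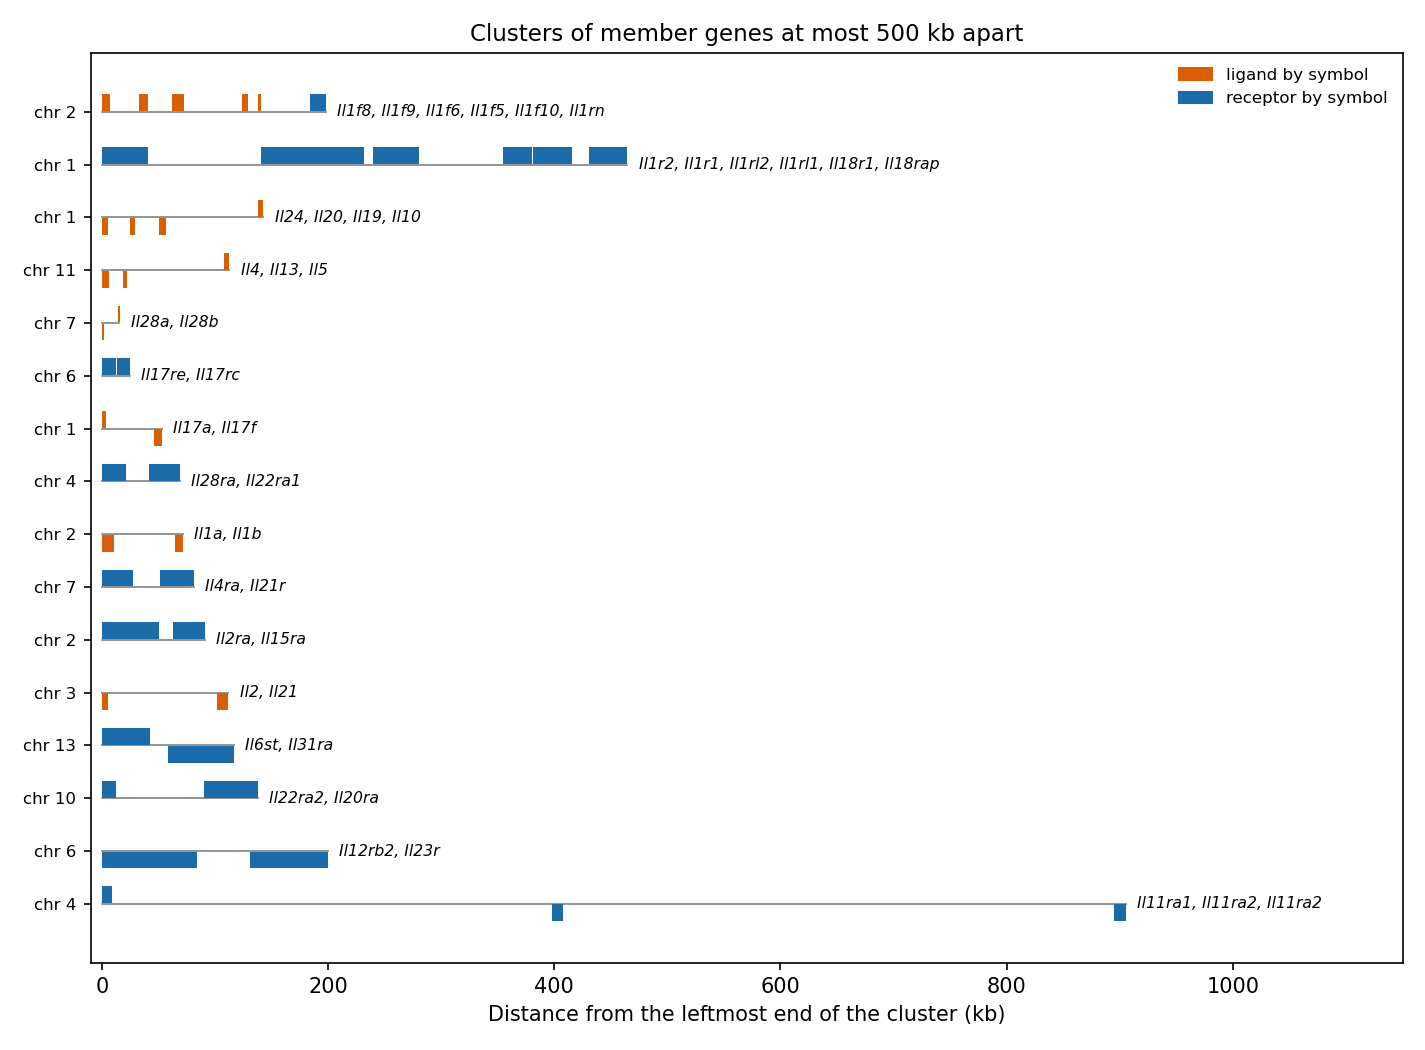
The 16 clusters drawn to scale as distance in kb from the leftmost end of each (x axis), 1 row per cluster labelled by chromosome, with plus-strand genes above and minus-strand genes below the line (orange ligands, blue receptors by symbol; genes under 2 kb drawn 2 kb wide). The rows of 6 at the top are the IL-1 ligand and IL-1 receptor clusters, and the bottom row shows the copies of Il11ra2.

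Ligand messages carried the core of the TTP site more often than receptor messages. The heptamer TATTTAT was searched on the transcribed strand in the longest 3′ UTR of each gene whose bases were all known, with overlapping copies counted. It was present in 18 of 34 searched ligands, 52.9% (95% exact binomial interval 35.1 to 70.2%, counting error only, related genes taken as independent). It was present in 9 of 37 searched receptors, 24.3% (11.8 to 41.2%), and in 22.4% of 15804 searched coding genes. Several of these ligands, Il2, Il10 and Il1b among them, are long known as TTP targets or AU-rich messages, so the share is no independent evidence of regulation. A match shows letters only and no binding.

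The ligands' 3′ UTRs were shorter, with a median of 523 nt searched against 927 nt in receptors and 702 nt over all genes. Per 1000 nt the ligands held 2.35 copies, the receptors 0.318 and all genes 0.300. Of 3′ UTRs up to 500 nt, 8 of 16 in ligands had the heptamer, 0 of 12 in receptors and 5.90% of all genes. Between 1000 and 2000 nt it was 3 of 6, 4 of 9 and 33.0%. The share of A and T was also higher in ligands, with a median of 57.1% against 53.1% in receptors and 55.6% over all genes, and its part in the difference was not tested.

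The windows below are those in which copies lay so close that 23 bases held more than 1, with capitals marking TATTTAT.
Il4: atttttaaTATTTATaTATTTAT
Il1b: taccTATTTATTTATgTATTTAT
Il11: ccagatctTATTTATTTATTTAT
Il12a: ccTATTTATATTTATTTATtttc
Il10ra: ggaaccttTATTTATTTATttgc
Their mm10 positions are chr11:53612498-53612520 for Il4 and chr2:129364807-129364829 for Il1b (both minus strand), chr7:4773505-4773527 for Il11 (minus strand), chr3:68698435-68698457 for Il12a and chr9:45254126-45254148 for Il10ra (minus strand). In Il1b, Il11 and Il12a the window held 3 copies, and in Il4 and Il10ra it held 2. Il10ra, the IL-10 binding chain, was the one receptor among the 5.

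Il11 had the most copies (6 in 1189 nt), followed by Il12a and Il23a with 5 each. These encode the p35 subunit of IL-12 and the p19 subunit of IL-23. Il10 and Il22 had 4, and Il1a, Il1b, Il2, Il5 and Il17a had 3. Il9 and Il4 had 2 copies each within only 86 and 103 nt. The other ligands with the heptamer were Il17f, Il21 and Il24 with 2 and Il6, Il12b and Il19 with 1. Among receptors, Il10ra had 3 copies, Il1r1, Il1rl1, Il7r and Il17rd had 2, and Il15ra, Il17ra, Il1rap and Il31ra had 1.

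Within the IL-1 family the heptamer was present in Il1a and Il1b and had 0 copies in Il18, Il33, Il1rn and the 5 Il1f genes. Not searched, for lack of a covered 3′ UTR or a complete frame, were the ligands Il3, Il13, Il15, Il17c, Il27, Il28a, Il28b and Il31 and the receptors Il11ra2, Il13ra1, Il1rapl1, Il1rapl2, Il22ra1 and Il2ra. For Il27, Il28a, Il28b and Il1rapl1 the deposited model ended at the stop codon.

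**Figure D5:**
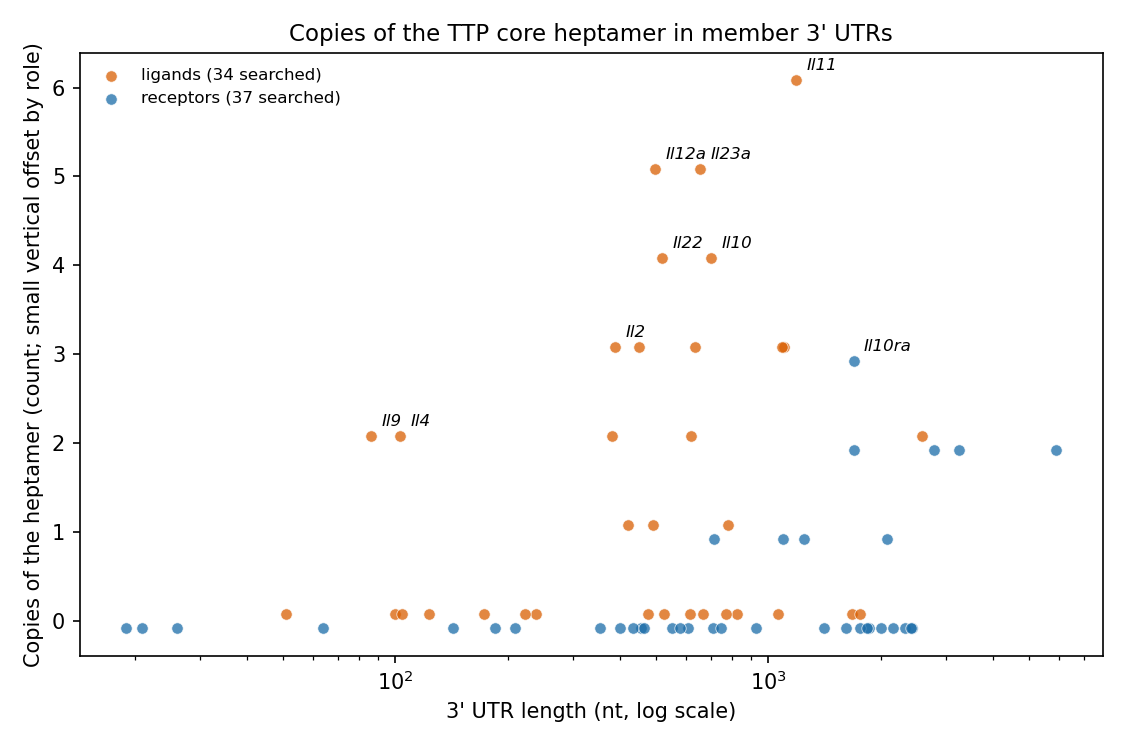
Copies of the heptamer (y axis, with a small vertical offset by role) against 3′ UTR length in nt (x axis, log scale) for 34 ligands (orange) and 37 receptors (blue), 1 point per gene. Every gene with 4 or more copies is a ligand, and Il9 and Il4 have 2 copies in the shortest 3′ UTRs that hold any.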

How the data were processed

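RNA with poly(A) tails from 16 spleen samples was sequenced. TopHat2 2.0.4 and build mm10 are named per the submitters' processing notes. The deposited file is a gene annotation whose columns are positions and other fields of no sample; its origin, the counting method and the strandedness were not given in the sources used here. Exon number, coding length, span and intron phase were computed from the transcript with the longest coding sequence of each gene (Python 3.11.15, numpy 2.4.6, scipy 1.17.1, matplotlib 3.10.9), for members and for all coding genes. Phases needed a start codon, a stop codon and a coding length divisible by 3. The phase code was tested on 200 made-up transcripts. Bases came from GENCODE M21 transcripts (GRCm38, the assembly of mm10), placed by their exons; of 26683 stop codons read, 99.978% were stops. A planned search for a receptor protein motif was not run, since no protein table was given. Values in full went to the 3 highest and lowest genes per role and measure, to isoforms, to cluster members and to misclassed genes, and other members were given by pattern. The members and lists were chosen with earlier results of these data known.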

Additional observations from a re-analysis of the deposited data

How the results depend on the processing

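No paired analysis was possible because a gene annotation holds no sample. Medians of exon number, coding length and span moved by less than their 95% binomial intervals under each alternative choice of transcripts or members. The same held for shares of intron phases and symmetrical exons. For transcripts, the transcript with the most exons or the shortest coding sequence stood for a gene. For members, Il1rn counted as a ligand, Il1rn, Il18bp, Il4i1 and Il16 were left out, or the Il1rap, Il1rapl and Il1rl genes were left out. The choice of transcript could change little, since only 15 members, 5 of them ligands, had more than 1. Leaving out the Il1rap, Il1rapl and Il1rl genes could not change a ligand value. The intervals count introns, exons or genes as independent, which they are not. Small moves against them therefore do not show that the values are stable. Clusters held 41 members at 100 kb, 45 at 1 Mb, 40 with no other coding gene between neighbours and, an alternative chosen after seeing the data, 41 without the Il11ra genes. More than 1 transcript was listed for 15 members, but GENCODE M21, also chosen after seeing the data, gave more than 1 coding sequence to 46. With the pentamer ATTTA in place of the heptamer the share of 3′ UTRs with a match was 79.4% in ligands, 54.1% in receptors and 58.5% in all coding genes, a shorter motif matching more often by construction. The search for motifs was limited to covered 3′ UTRs.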
